A study of Mus musculus with 19 samples.

Results

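A set of 10 genes of Wnt signalling were followed in mouse endometrium, namely the secreted antagonists Dkk1, Dkk2, Dkk3, Sfrp1, Sfrp2, Sfrp4 and Wif1, the R-spondins Rspo1 and Rspo3, and the target gene Axin2. They were chosen by name and matched to the identifiers of the deposited counts through the mouse GENCODE symbols of GRCm38, and all 10 were found among 49089 genes. Of these, 9 passed the filter on low counts, as did 17222 genes in all.

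Endometrium scraped from the myometrium of WT C57Bl/6 females, 8 to 14 weeks old where mated, was sequenced as 19 pooled samples in 5 groups, with no number of animals per pool found in the sources used here. The CONT group (n = 3) was endometrium of virgin, estrous females around ovulation, and the INT group (n = 4) was endometrium on day 3.5 pc (post-coitum) after mating with intact Balb/c males. In a further 3 groups of 4 libraries, also on day 3.5 pc, the Balb/c males had been surgically modified. For these groups the labels disagree, since the columns named SVX, SVX_VAS and VAS carry titles for vasectomised, seminal vesicle-deficient and seminal vesicle-deficient/vasectomised males, so that the column names are used and no surgery is assigned to them. The 4 day 3.5 pc groups are together called the mated groups below. Every CONT library is from estrus and every mated library from day 3.5 pc, collected at another hour of the day. Mating, cycle stage and hour therefore cannot be told apart.

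Wnt ligands bind Frizzled receptors and the co-receptors Lrp5 and Lrp6, which spares beta-catenin from destruction and lets it switch on target genes with transcription factors of the Tcf/Lef family. Dickkopf proteins such as Dkk1 and Dkk2 block the co-receptors, whereas the Sfrp proteins and Wif1 bind Wnt ligands outside the cell, and R-spondins strengthen the signal by removing Znrf3 and Rnf43, the ligases that clear Frizzled from the cell surface. In the uterus, Wnt signalling passes between epithelium and stroma and is known for its part in gland formation and in preparation for implantation.

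Endometrium on day 3.5 pc held far more RNA of 3 antagonists than endometrium at estrus. Sfrp2 was 12.1-fold, Dkk3 4.77-fold and Sfrp4 3.58-fold higher in INT than in CONT, and Rspo3 was 3.02-fold higher. The same 4 genes rose in each of the other mated groups, and none of the 9 tested genes fell in any mated group. None of the 9 differed between a group mated with modified males and INT at the cutoffs used, an FDR (the Benjamini-Hochberg adjusted p over all genes tested) of 0.05 or less and a fold change of at least 1.5 in edgeR's quasi-likelihood test.

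Of the 9 tested genes, 4 rose in INT, 5 in SVX, 4 in SVX_VAS and 6 in VAS against CONT. Many other genes moved too: 20.9% of all genes tested rose and 12.7% fell in INT, 23.1% rose and 18.4% fell in SVX, 22.1% rose and 16.4% fell in SVX_VAS, and 23.2% rose and 17.2% fell in VAS. The 4 comparisons share the CONT libraries and are not independent of each other. The median log2 fold change (logFC) of the 9 genes was 1.59 in INT, 1.91 in SVX, 0.56 in SVX_VAS and 2.05 in VAS, beside medians of -0.01, -0.01, -0.02 and -0.07 over all genes tested. These medians include Wif1, whose estimates have wide intervals, in SVX_VAS from -7.08 to 6.49. Wif1 lay below 0 in SVX_VAS and above 0 in the other mated groups. The lower median in SVX_VAS, which is the value of Dkk2, turned on Wif1 and is no separate result. Because the libraries are pools from bulk tissue, p-values measure the spread between pools, and more cells of a type cannot be told apart from more RNA per cell.

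**Figure D1:**
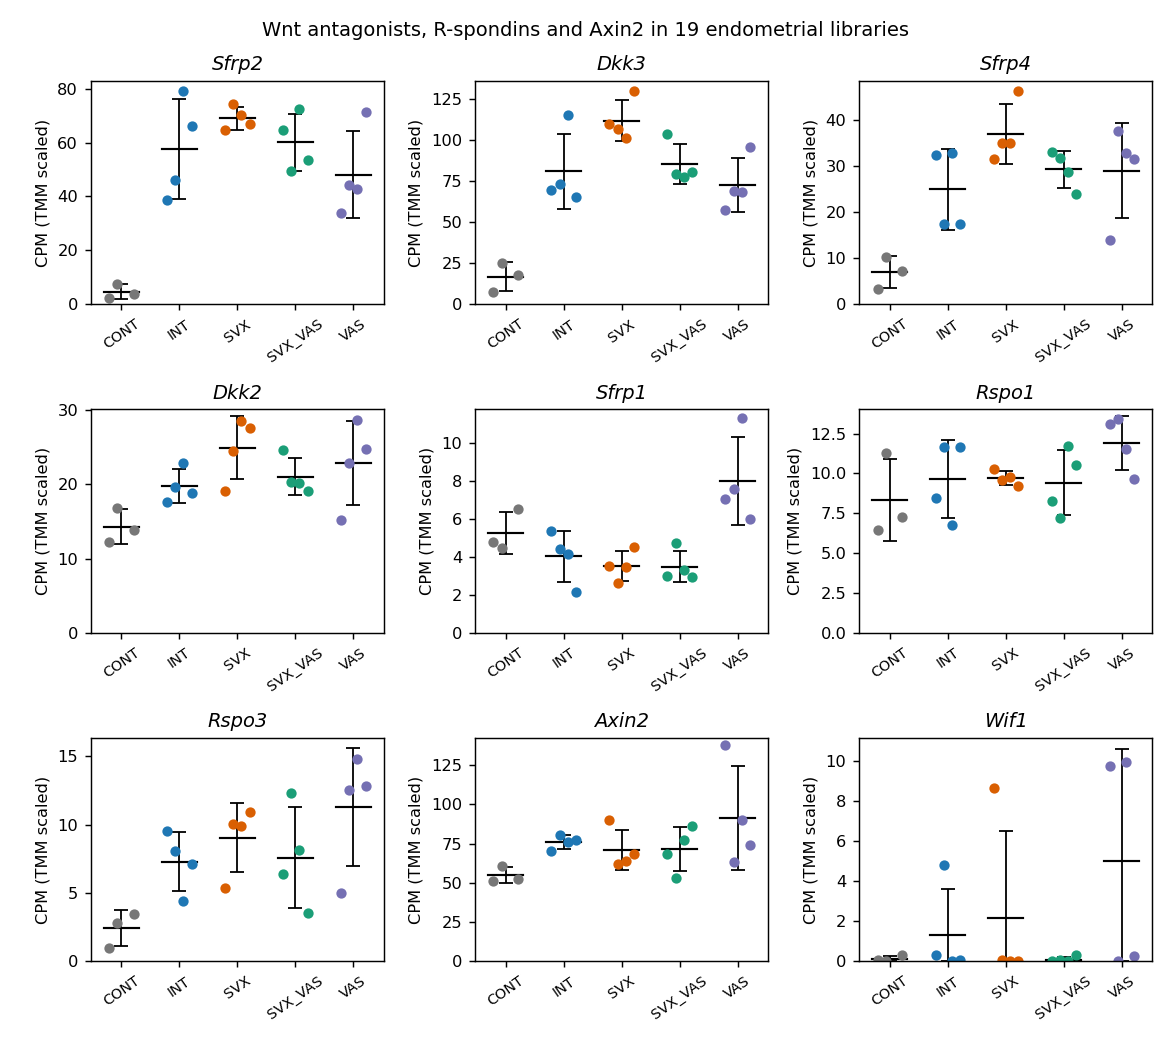
Level of 9 genes (CPM, counts relative to the library total after TMM scaling) in each of the 19 libraries, 1 panel per gene with its own axis from 0. Points are libraries, horizontal lines are group means and bars are 1 SD (cut at 0). Sfrp2, Dkk3 and Sfrp4 lie higher in all 16 mated libraries than in the 3 CONT libraries, while Wif1 is above 4 CPM in 4 libraries and at most 0.303 CPM in the others.

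Totals on genes ran from 15487788 to 31781270 counts in CONT and from 12661266 to 20525568 in the mated libraries, so that 3 counts, the limit that a count of 0 allows, stood for 0.108 to 0.236 CPM (counting error only). VAS 2 and VAS 3 stood apart from the other 17 libraries. Genes annotated as antisense held 0.470% and 0.466% of their counts, against 1.28 to 1.39% in the others, and 721 genes with at least 1 CPM in each of the other 17 libraries had 0 counts in both. In 4 mated libraries the summed CPM of 6 estrogen-response genes was high, at 8722 in SVX_VAS 2, 8049 in INT 1, 2840 in INT 2 and 2298 in VAS 1, against at most 1050 in the other mated libraries and 9370 to 11900 in CONT.

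Every list of cell type markers had counts in every group, among them those of epithelium and stroma. Several lists differed between CONT and INT. Of 10 stromal markers 6 rose and 0 fell in INT against CONT, with summed levels of 6240 to 6710 CPM in CONT and 7960 to 10700 CPM in INT. In VAS 2 and VAS 3 the stromal sum was 2231 and 2440 CPM, under every other library. In INT all 6 endothelial markers rose, with sums of 175 to 258 CPM and 666 to 994 CPM. Of 8 epithelial markers 5 fell, with sums of 3880 to 5280 CPM in CONT and 782 to 2610 CPM in INT. All 8 progesterone-response genes rose, as did 6 of the 7 leukocyte markers tested (1 fell), 4 of 6 glandular markers (1 fell), 4 of 5 red blood cell markers, and 1 each of 8 smooth muscle and 5 mesothelial markers. Of 6 estrogen-response genes 1 rose and 1 fell, and none of 6 proliferation genes passed. The part of these shifts in the changes below was not tested.

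The promoters of 6 of the 10 genes were matched in RefSeq (GRCm38.p6), and the 250 bases before the gene start are shown for the antagonist with the largest rise, for the target gene, and for Dkk2, which holds letters of the Tcf/Lef core. Capitals mark ACAAAG or TCAAAG read on either strand, as CTTTGT or CTTTGA on the strand printed.
Sfrp2, chr3:83766071-83766320, plus strand: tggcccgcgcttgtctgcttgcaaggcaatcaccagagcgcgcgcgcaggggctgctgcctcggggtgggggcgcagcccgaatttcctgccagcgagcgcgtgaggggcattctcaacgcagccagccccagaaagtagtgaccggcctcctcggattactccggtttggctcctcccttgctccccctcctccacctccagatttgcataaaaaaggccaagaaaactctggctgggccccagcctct
Axin2, chr11:108920099-108920348, plus strand: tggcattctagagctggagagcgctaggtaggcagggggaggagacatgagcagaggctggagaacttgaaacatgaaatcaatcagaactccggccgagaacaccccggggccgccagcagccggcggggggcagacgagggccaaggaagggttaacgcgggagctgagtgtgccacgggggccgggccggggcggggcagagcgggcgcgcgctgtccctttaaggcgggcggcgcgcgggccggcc
Dkk2, chr3:132085042-132085291, plus strand: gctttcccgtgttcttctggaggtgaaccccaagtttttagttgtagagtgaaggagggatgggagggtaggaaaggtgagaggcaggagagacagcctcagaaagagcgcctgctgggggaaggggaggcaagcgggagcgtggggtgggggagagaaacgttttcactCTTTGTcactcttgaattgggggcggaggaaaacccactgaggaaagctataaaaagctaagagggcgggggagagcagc
These letters begin 80 bases before the RefSeq start of Dkk2, and the window of Dkk1, not shown, held 3 matches. They were not in the windows of Sfrp2, Axin2, Rspo1 and Wif1, so that 2 of 6 windows held them, beside 27.6% of all 32851 promoter windows of that length. No window was matched for Dkk3, Sfrp1, Sfrp4 and Rspo3.

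Sfrp2, a secreted decoy that binds Wnt ligands through a Frizzled-like domain, made the largest rise of the genes that passed the test. Its level was 2.32, 7.72 and 3.87 CPM in CONT 1, 2 and 4. In INT 1 to 4 it was 38.6, 46.0, 78.9 and 66.3 CPM. Every INT library was therefore several times higher than the highest CONT library. It was 64.7, 74.3, 70.3 and 66.7 CPM in SVX 1 to 4, 64.7, 49.6, 72.5 and 53.5 CPM in SVX_VAS 1 to 4, and 33.7, 44.2, 42.8 and 71.2 CPM in VAS 1 to 4. All 16 mated libraries lay above the CONT libraries, and the mated groups overlapped each other. The logFC against CONT was 3.60 ± 0.38 (SE) in INT (FDR 4.61e-06), 3.86 ± 0.38 in SVX, 3.66 ± 0.38 in SVX_VAS and 3.34 ± 0.37 in VAS. The lowest Sfrp2 level of the mated libraries was in VAS 1 and the next lowest in INT 1, both of them among the libraries with high estrogen-response genes. The others of that set, INT 2 and SVX_VAS 2, ranked 12 and 11 of 16 from the highest. They lay above VAS 2 and VAS 3, outside the set, which ranked 13 and 14. Sfrp2 (chr3:83766321-83774316, plus strand) shares exon positions with the antisense gene Gm26771, which held 7 to 321 counts per library, and the counting setting for strand is not given in the sources used here.

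Dkk3, a divergent member of the Dickkopf family, followed the same course. It measured 7.73, 25.3 and 17.6 CPM in CONT 1, 2 and 4, and 69.8, 73.1, 114.9 and 65.5 CPM in INT 1 to 4. The means were 16.9 ± 8.81 CPM in CONT (SD, n = 3), 80.8 ± 22.9 in INT, 112 ± 12.5 in SVX, 85.1 ± 12.1 in SVX_VAS and 72.5 ± 16.2 in VAS (SD, n = 4 each). The logFC in INT was 2.25 ± 0.31 (SE, FDR 3.53e-05), with 2.10 to 2.72 in the other mated groups, and the lowest mated library, VAS 1 at 57.6 CPM, was above the highest CONT library. Dkk3 and Sfrp2 also varied together within groups, with a Pearson r of 0.818 of log2 CPM across the 19 libraries after the group means were taken off, and these values share library, depth and scaling.

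Sfrp4, another Frizzled-like decoy, was the third antagonist that rose in every mated group. It was 3.39, 10.3 and 7.13 CPM in CONT 1, 2 and 4, against 32.3, 17.5, 32.8 and 17.3 CPM in INT 1 to 4. The INT libraries thus formed a higher and a lower pair, both above CONT. The means were 25.0 ± 8.76 CPM in INT, 36.9 ± 6.41 in SVX, 29.3 ± 4.01 in SVX_VAS and 28.9 ± 10.3 in VAS, against 6.93 ± 3.44 in CONT. The logFC in INT was 1.84 ± 0.38 (SE, FDR 0.000814), with 2.05 to 2.40 in the other mated groups. Sfrp2, Dkk3 and Sfrp4 passed the test against CONT in all 4 mated groups under each alternative run, leaving out each library included.

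Dkk2, which blocks the co-receptors, changed less. Its level was 12.2, 16.9 and 13.8 CPM in CONT 1, 2 and 4, 17.6 to 22.9 CPM in INT, 19.1 to 28.5 CPM in SVX, 19.1 to 24.6 CPM in SVX_VAS and 15.2 to 28.7 CPM in VAS. The CONT libraries lay below those of INT, SVX and SVX_VAS and overlapped with VAS. It rose in SVX (logFC 0.80 ± 0.19, FDR 0.00211) and in VAS (0.68 ± 0.19, FDR 0.00691), while the values in INT (0.47 ± 0.19, FDR 0.0546) and SVX_VAS (0.56 ± 0.19, FDR 0.0221, under the fold cutoff) did not pass. The call in VAS was lost without VAS 3 (0.58), without CONT 1 (0.57) without both VAS 2 and VAS 3 (0.48) and without these and SVX 1 (0.49). It was also lost with only the libraries compared in the fit (0.69) and with limma-voom, quality weights and TREAT (0.85), as was the call in SVX with the latter (0.84). Dkk2 passed in INT without CONT 2 (0.60) and in SVX_VAS without CONT 2 (0.69), SVX_VAS 4 (0.60) or the 4 libraries with Wif1 described below (0.59).

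Dkk1, the best known inhibitor of the co-receptors, was at the limit of detection. It had 0 or 1 count in every library, summing to 1 count over the 3 CONT libraries and 7 counts over the 16 mated libraries. It did not pass the filter and no fold change is given.

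Sfrp1, a further Frizzled-like decoy, was low in every group and was the only one of these genes whose 4 VAS libraries all lay above the rest of the mated libraries. It measured 4.76, 4.45 and 6.52 CPM in CONT 1, 2 and 4, 2.17 to 5.37 CPM in INT, 2.60 to 4.51 CPM in SVX and 2.94 to 4.71 CPM in SVX_VAS. In VAS 1 to 4 it was 7.05, 7.56, 11.3 and 6.00 CPM. The VAS libraries overlapped with CONT. No comparison with CONT passed, with a logFC of -0.38 ± 0.29 in INT, -0.57 ± 0.30 in SVX, -0.58 ± 0.29 in SVX_VAS and 0.61 ± 0.30 in VAS (FDR 0.316, 0.110, 0.107 and 0.0901). Sfrp1 passed as lower in SVX_VAS without SVX_VAS 2, and without the 4 libraries with high estrogen-response genes (-0.76 each), and as higher in VAS with limma-voom (0.67).

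Wif1, which binds Wnt ligands in the extracellular space, was present in some mated libraries and nearly absent from the rest. It was 4.79 CPM in INT 2, 8.65 CPM in SVX 1, 9.75 CPM in VAS 1 and 9.97 CPM in VAS 3, from 76 to 212 counts. In the other 15 libraries it had at most 4 counts, or 0.303 CPM. The libraries with Wif1 thus came from 3 mated groups and were a minority or an equal share of each. No comparison of Wif1 passed, with an FDR of 0.0672 in VAS against CONT as the nearest, which passed without VAS 2 and with DESeq2. No fold is given, since the counts in CONT 1, 2 and 4 were 1, 0 and 4.

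**Figure D2:**
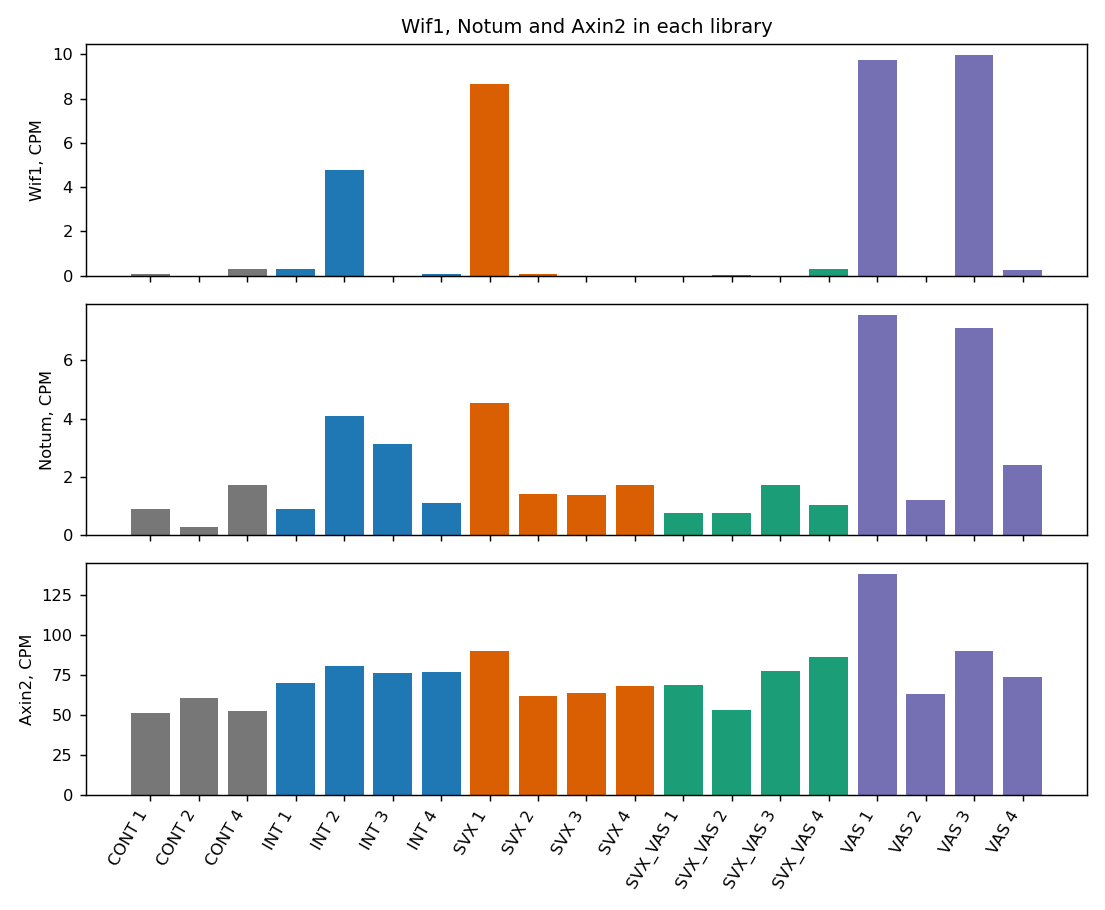
Wif1, Notum and Axin2 (CPM, 1 panel each, axes from 0) as 1 bar per library, coloured by group. The 4 libraries with Wif1 above 4 CPM, namely INT 2, SVX 1, VAS 1 and VAS 3, also hold the 4 highest values of Notum, from 4.10 to 7.55 CPM.

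Notum, a secreted enzyme that inactivates Wnt ligands and is itself a Wnt target, was highest in the same 4 libraries, as the bars by library show, at 4.10 CPM in INT 2, 4.52 in SVX 1, 7.55 in VAS 1 and 7.10 in VAS 3. In the other 15 libraries Notum was at most 3.14 CPM. Axin2 was highest in VAS 1 at 138 CPM, VAS 3 at 90.1 CPM and SVX 1 at 89.9 CPM, and INT 2 was the fifth of the 16 mated libraries. The 3 other targets with the largest rises in INT, described below, did not share this order. Lef1 was lowest of the mated libraries in VAS 1, at 33.65 CPM, and highest in INT 3, at 134.8 CPM. Apcdd1 was 96.31 to 151.6 CPM in the 4 libraries with Wif1 and 200.9 CPM in INT 3. Nkd1 was highest in VAS 3 and SVX 1, at 29.25 and 27.34 CPM, but 20.12 CPM in VAS 1 and 20.61 CPM in INT 2. Over the 19 libraries, with group means taken off, Wif1 and Axin2 had an r of 0.667 of log2 CPM. Among the features described above, VAS 3 stood apart with VAS 2, which had 0 counts of Wif1, and INT 2 and VAS 1 had high estrogen-response genes while SVX 1 did not. The summed level of 6 proliferation genes was 1195 CPM in INT 2, 1266 in SVX 1, 1545 in VAS 1 and 675 in VAS 3. VAS 1 held the highest of the 16 mated values, and INT 2, SVX 1 and INT 3 (1278 CPM) the next 3, with 513 CPM as the lowest.

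Rspo3, an R-spondin, rose in every mated group from a low level. It was 0.951, 2.80 and 3.49 CPM in CONT 1, 2 and 4, and 9.53, 8.07, 4.39 and 7.14 CPM in INT 1 to 4. The ranges were 5.37 to 10.9 CPM in SVX, 3.53 to 12.3 CPM in SVX_VAS and 5.02 to 14.8 CPM in VAS, each above CONT, with SVX_VAS 4 only just so. The logFC against CONT was 1.59 ± 0.49 in INT (FDR 0.0135), 1.91 ± 0.50 in SVX (FDR 0.00358), 1.65 ± 0.49 in SVX_VAS (FDR 0.00947) and 2.23 ± 0.50 in VAS (FDR 0.00135). The call in INT was lost without CONT 1 (logFC 1.21, FDR 0.0675) and with limma-voom (1.65), and with quality weights and TREAT it was lost in INT (1.54) and SVX_VAS (1.37). The highest mated levels of Rspo3 were in VAS 3, VAS 4 and VAS 2, at 14.77, 12.85 and 12.55 CPM, and VAS 2 and VAS 3 stood apart. The call in VAS was kept under each alternative run. Rspo3 shares exon positions with the antisense gene Gm48159, which is not among the genes counted.

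Rspo1, the other R-spondin, did not pass in any comparison. Its means were 8.34 ± 2.57 CPM in CONT, 9.65 ± 2.44 in INT, 9.73 ± 0.434 in SVX, 9.43 ± 2.07 in SVX_VAS and 11.9 ± 1.70 in VAS. The logFC in INT was 0.21 with a 95% interval from -0.28 to 0.69, and in VAS it was 0.51 with an interval from 0.03 to 0.99 (FDR 0.492 and 0.0668). Every mated group overlapped with CONT, and the value in VAS passed without CONT 2 (0.79) or VAS 4 (0.60).

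Among the receptors and ligases through which R-spondins act, directions differed between the ligases. In INT against CONT, Znrf3 rose (FDR 4.91e-06) from 28.3 ± 2.82 to 56.8 ± 8.54 CPM, while Rnf43 fell (-0.72 ± 0.24, FDR 0.0233) from 58.4 ± 3.86 to 35.5 ± 6.66 CPM. The call of Rnf43 was lost without CONT 1 (-0.73, FDR 0.0533), CONT 4 (-0.67, FDR 0.0687) or INT 3 (-0.63, FDR 0.0556) and with limma-voom, quality weights and TREAT (-0.65). The receptors Lgr4 (-0.15, FDR 0.278), Lgr5 (1.91, FDR 0.0652) and Lgr6 (-2.14, FDR 0.195) did not pass. Lgr6 was 39.0 to 54.0 CPM in CONT and had a median of 3.36 CPM in INT, where its highest library reached 36.1 CPM. Rspo2 and Rspo4 were under the filter, so that of 7 genes in this list 5 were tested, 1 rose and 1 fell.

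Axin2, a scaffold of the complex that destroys beta-catenin and a widely used readout of the pathway, was on average moderately higher in the mated groups. It was 51.1, 60.9 and 52.5 CPM in CONT 1, 2 and 4, and 70.2, 80.6, 76.0 and 77.2 CPM in INT 1 to 4. The groups did not overlap, but the logFC of 0.47 ± 0.22 did not pass (FDR 0.0878). Axin2 was 89.9, 61.8, 64.1 and 68.5 CPM in SVX 1 to 4 and 68.6, 53.3, 77.3 and 86.3 CPM in SVX_VAS 1 to 4, with a logFC of 0.37 ± 0.22 and 0.38 ± 0.22 (FDR 0.158 and 0.157). In VAS 1 to 4 it was 138, 63.2, 90.1 and 74.1 CPM. It rose in VAS (logFC 0.73 ± 0.22, FDR 0.00946), and without VAS 1 this call was lost, as the logFC of 0.47 was under the fold cutoff. It was also lost with limma-voom, quality weights and TREAT (0.56), with only the libraries compared in the fit (0.74), without the 4 libraries with high estrogen-response genes (0.47) and without the 4 libraries with Wif1 (0.35). Leaving out either set takes away VAS 1, and leaving out the set with Wif1 also VAS 3, so that a lower logFC was built in. SVX_VAS 2, with the highest estrogen-response genes of the mated libraries, held the lowest Axin2 level of them, within the CONT range. VAS 1, also among the libraries with high estrogen-response genes, held the highest, and INT 2 and INT 1 ranked 5 and 10 of 16. Axin2 (chr11:108920349-108950783, plus strand) shares exon positions with the antisense gene Gm11670.

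**Figure D3:**
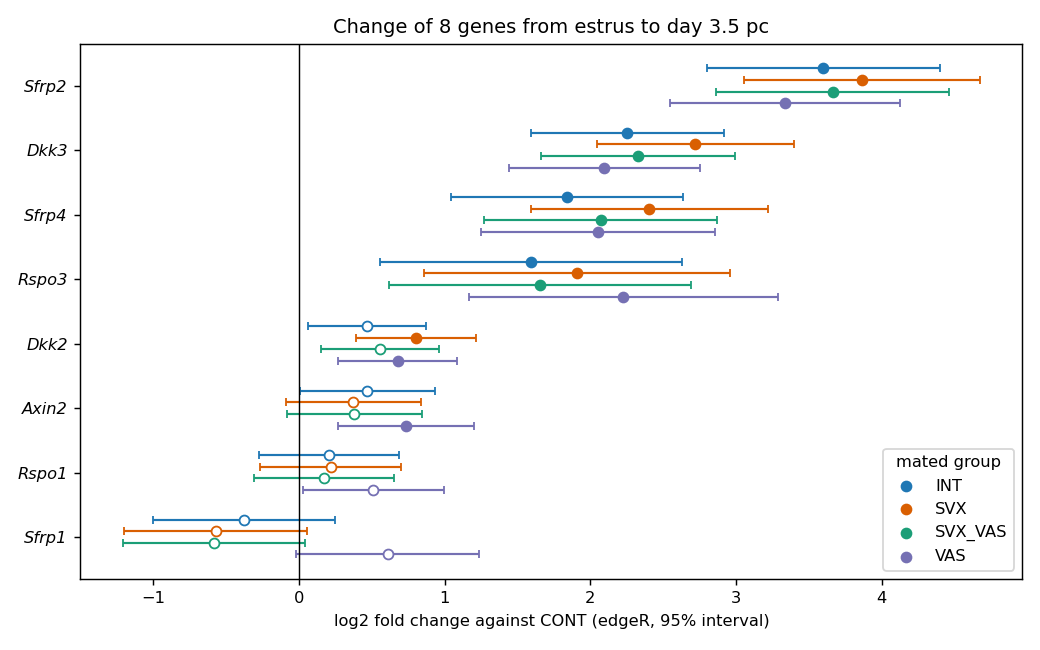
Log2 fold change of 8 genes in each mated group against CONT, from edgeR, with 95% intervals. Filled points passed an FDR of 0.05 or less and a fold of at least 1.5, and open points did not. Wif1 is left out because its intervals are wide, in SVX_VAS from -7.08 to 6.49. Sfrp2, Dkk3, Sfrp4 and Rspo3 are filled in all 4 groups, while Sfrp1 lies left of 0 in 3 groups and right of 0 in VAS without passing in any.

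Every library of the mated group lay above every CONT library for 6 of the 9 genes in INT (Dkk2, Dkk3, Sfrp2, Sfrp4, Rspo3 and Axin2), 6 in SVX, 5 in SVX_VAS (not Axin2) and 5 in VAS (not Dkk2). The same held for 31.0%, 35.2%, 33.5% and 26.7% of all genes tested. No gene of the 9 had every mated library below every CONT library in any group. Of all genes tested, 31.3% lay below in this way in INT, 35.7% in SVX, 34.0% in SVX_VAS and 28.3% in VAS.

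Levels between genes were compared per length, as RPKM from the exon lengths in the counts. At estrus Axin2 was the most abundant of the 10, at 9.96 ± 0.954 RPKM, and did not overlap with the next, Dkk3 at 5.02 ± 2.62 RPKM. Below it Dkk3, Rspo1, Sfrp4 and Dkk2 overlapped with their neighbours, and Sfrp2 stood sixth at 2.15 ± 1.29 RPKM. In INT the order opened with Sfrp2 at 26.7 ± 8.60 RPKM and Dkk3 at 24.1 ± 6.83 RPKM, which overlapped, followed by Sfrp4 at 14.2 ± 4.99 and Axin2 at 13.8 ± 0.787 RPKM, which also overlapped. Sfrp2 and Dkk3 had the highest means in all 4 mated groups. They were not the highest in each library: Axin2 reached 25.0 RPKM in VAS 1, where Sfrp2 was 15.7 and Dkk3 17.1 RPKM, and in INT 1 Sfrp4 at 18.4 RPKM was above Sfrp2 at 17.9 RPKM. In VAS 2 Sfrp4, at 21.4 RPKM, was above both Sfrp2 and Dkk3 at 20.5 RPKM each. The lowest levels in INT were those of Sfrp1 (0.922 RPKM), Wif1 (0.532 RPKM) and Dkk1 (0.0131 RPKM).

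**Figure D4:**
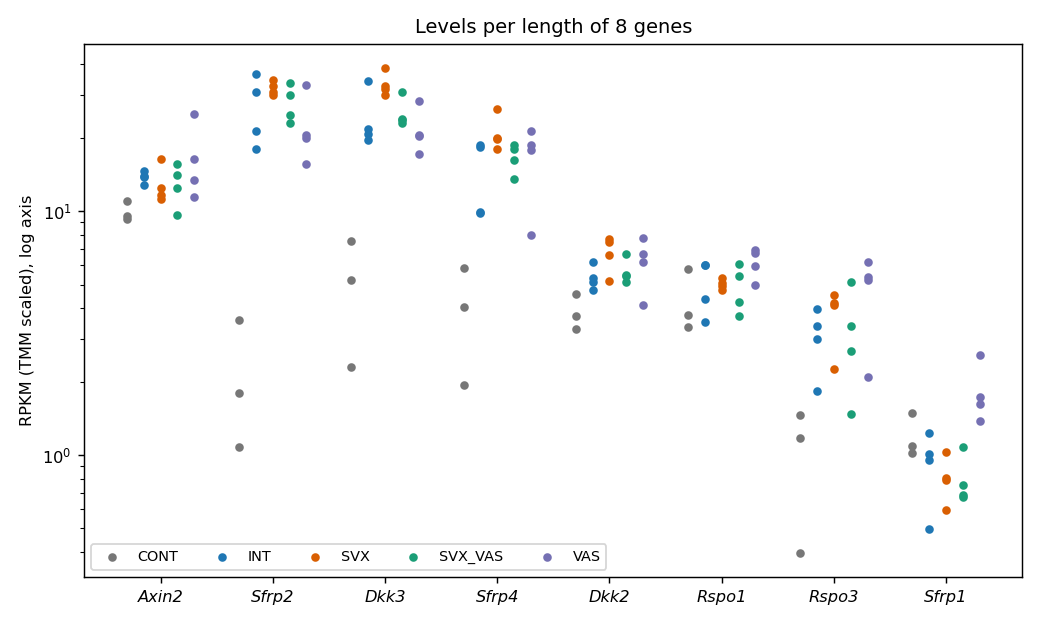
Level per length (RPKM, scaled by TMM, log axis) of 8 genes in each library, with points coloured by group. At estrus Axin2 lies above the other genes. In the mated groups the means of Sfrp2 and Dkk3, 21.6 to 33.3 RPKM, are the highest, while single libraries of Axin2 in VAS and of Sfrp4 in INT and VAS overlap with them.

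The 7 antagonists together summed to 9.71 to 22.6 RPKM in the CONT libraries and to 50.5 to 104 RPKM in the mated libraries. Sfrp2, Dkk3 and Sfrp4 made up 54.7 to 75.2% of that sum in CONT and 80.3 to 92.6% in the mated libraries. These genes were grouped because they rose in these same libraries, so that a larger share there was built in and is no separate result. The sum of both R-spondins was 3.74 to 6.99 RPKM in CONT and 5.34 to 12.2 RPKM in the mated libraries. These ranges overlapped whereas those of the antagonist sum did not. Single genes differed from their sums. Rspo3 alone did not overlap with CONT, whereas Dkk1, Sfrp1 and Wif1 did in every mated group and Dkk2 did in VAS.

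Between the groups mated with modified males and INT, none of the 9 genes passed in edgeR, nor did any of the 17222 genes tested: the share called was 0% in SVX, 0% in SVX_VAS and 0% in VAS against INT, and 0% in the test of any difference among the 4 mated groups. At an unadjusted p under 0.05 there were 749, 339 and 1831 genes in the 3 comparisons and 1213 in the test of any difference. Sfrp1 was the only one of the 9 genes among them, in VAS against INT and in the test of any difference. DESeq2 called 3, 2 and 0 genes and 21 for any difference, and limma-voom 0, 0 and 1661 genes and 1396 for any difference. In VAS against INT, limma-voom with quality weights and TREAT called 2488 genes, and edgeR called 574 without VAS 1 and 133 without VAS 4.

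Sfrp1 was 0.99 ± 0.27 log2 units higher in VAS than in INT (95% interval 0.40 to 1.57, FDR 0.452), a 1.98-fold difference in the means that did not pass in edgeR. It passed with limma-voom (1.04, FDR 0.0213), where 9.64% of all genes tested were called, and in edgeR without VAS 1 (1.04, FDR 0.0484), where 3.34% of all genes tested were called, and for any difference among the mated groups with DESeq2 (FDR 0.0130) and limma-voom (FDR 0.0266). VAS 2 and VAS 3, the libraries that stood apart, held the highest Sfrp1 levels and the lowest stromal sums, the part of which was not tested. Without them the logFC was 0.70 (FDR 1), though VAS 1 and VAS 4, at 7.05 and 6.00 CPM, were still above the highest INT library at 5.37 CPM.

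For the other genes no difference from INT passed, which does not show that the groups were alike. For Sfrp2 the 95% intervals of the logFC against INT were -0.36 to 0.89 in SVX, -0.56 to 0.69 in SVX_VAS and -0.89 to 0.37 in VAS. For Axin2 they were -0.52 to 0.33, -0.52 to 0.33 and -0.16 to 0.69. Those of Rspo3 were wider, at -0.59 to 1.22, -0.84 to 0.97 and -0.27 to 1.54. For Wif1 they ran from -2.85 to 4.33, from -8.83 to 0.93 and from -1.64 to 5.52.

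The rest of the pathway was read from lists chosen for their roles, in INT against CONT, beside 20.9% of all genes tested that rose. Of 14 other target genes tested, 9 rose and 1 fell, and Apcdd1, Znrf3, Rnf43, Notum and Lgr5 on this list also stand on another. Lef1, a transcription factor that acts with beta-catenin, rose by 4.48 ± 0.45 log2 units, from 2.38 to 5.74 CPM in CONT to 56.9 to 134.8 CPM in INT. Apcdd1, a membrane inhibitor of Wnt signalling, rose by 3.18 ± 0.31 and Nkd1, an inhibitor that binds Dishevelled, by 2.26 ± 0.25. Rnf43 was the target that fell, and its call was lost without single libraries, as given above.

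Of 7 other antagonists and their receptors tested, out of 12 listed, 3 rose, namely Apcdd1, the decoy Frzb (2.21 ± 0.43, from 3.98 ± 0.734 to 18.4 ± 12.8 CPM) and Draxin (1.36 ± 0.31), and none fell. Among the Wnt ligands, 10 of 19 were tested, of which 3 rose and 1 fell. Wnt11 rose by 5.14 ± 0.57, from 0.812 ± 0.649 to 27.6 ± 12.4 CPM, Wnt6 by 4.37 ± 0.48 and Wnt9a by 1.66 ± 0.18, whereas Wnt4 had a logFC of -1.38 ± 0.55 (FDR 0.0462). The call of Wnt4 was lost without CONT 1 (-1.50), CONT 2 (-1.22), CONT 4 (-1.43), INT 2 (-1.45), INT 3 (-1.36) or INT 4 (-1.15), and without SVX 2, 3 or 4, SVX_VAS 4, VAS 2 or VAS 3, at an FDR of 0.0533 to 0.125. It was also lost without a filter on low counts (-1.41), without the 4 libraries with Wif1 (-1.41) and with limma-voom, quality weights and TREAT (-1.36). The number of ligands that fell was 0 to 3 over the alternatives.

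Of 14 receptors and co-receptors tested, 6 rose, led by Ror1 (1.69 ± 0.25), Fzd2 (1.58 ± 0.20) and Fzd1 (1.22 ± 0.22), and Fzd5 fell (-0.83 ± 0.11). Fzd3 and Fzd7, among the 6, did not pass without CONT 1 (0.58 and 0.65), Fzd3 without INT 3 (0.58), and Fzd7 without CONT 4 (0.74), INT 1 (0.62) or INT 4 (0.68) or with limma-voom (0.68). With limma-voom, quality weights and TREAT, neither these nor Fzd5 passed. Of 16 intracellular components, 2 rose, the co-activator Pygo1 (1.92 ± 0.19) and the transcription factor Tcf7l1 (0.85 ± 0.23), 1 fell, Bcl9, which links beta-catenin to Pygo proteins (-1.55 ± 0.29), and 13 did not pass. The call of Tcf7l1 was lost with limma-voom, quality weights and TREAT (0.67). No gene of these lists passed against INT in any group mated with modified males.

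**Figure D5:**
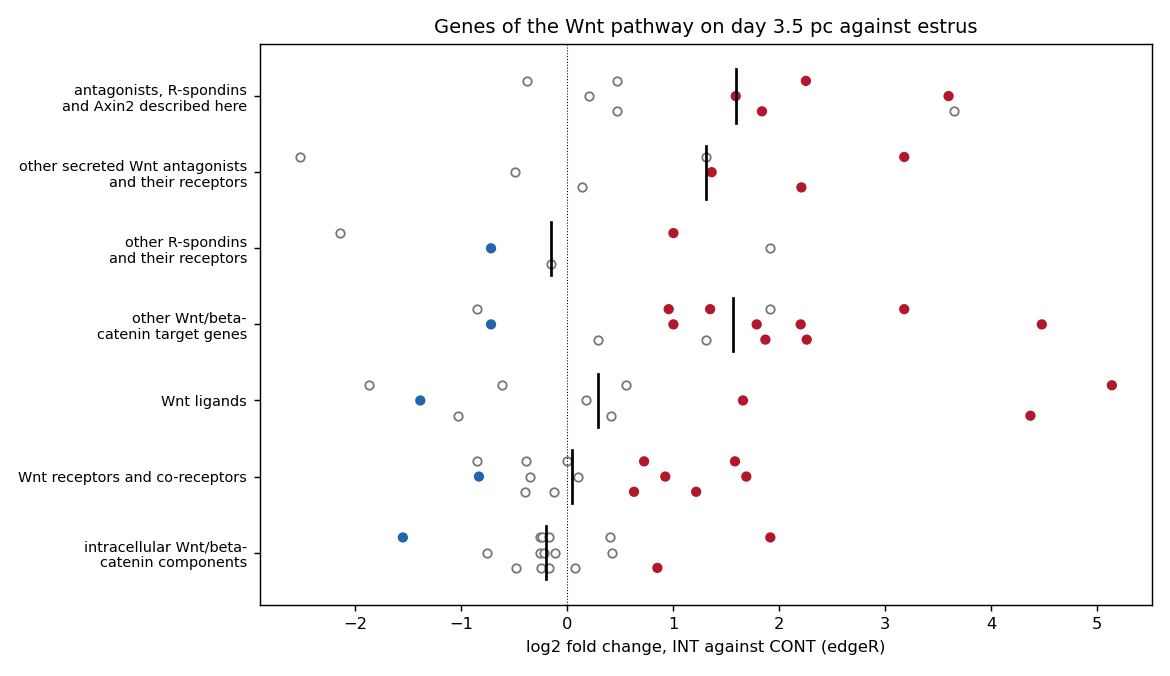
Log2 fold change in INT against CONT of the 9 genes described here and of 6 lists of the Wnt pathway, 1 point per tested gene, with a vertical line at each list's median. Red points rose and blue points fell past the cutoffs, open points did not pass, and Apcdd1, Znrf3, Rnf43, Notum and Lgr5 appear in more than one list. The medians are 1.59 for the 9 genes and 1.57 for the other targets. They are 1.31 for the other antagonists and -0.20 for the intracellular components. The first of these includes Wif1, whose estimate has a wide interval.

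The genes most like each of these across the 19 libraries, by Pearson r of log2 CPM, are given as a description, and the values share library, depth, scaling and, for the genes that rose, the gap between CONT and the mated groups. For Sfrp2 they were Tpst1 (0.996), Scara3 (0.995) and Hoxd11 (0.994), for Dkk3 Gnai1 (0.981), Loxl3 and Fmo1 (0.979 each), and for Sfrp4 Tent5c (0.976), Acss3 (0.965) and Pde3a (0.961). For Dkk2 they were Fasl (0.949), Pdp1 (0.932) and Sfxn4 (0.931), and for Rspo3 AU041133 (0.927), Dzank1 (0.917) and Ptgfr (0.913). For Axin2 they were Foxl2os (0.925), Scube1 (0.907) and Dnm1 (0.891), for Wif1 Bpifb5 (0.892), 4930426D05Rik (0.863) and Igsf10 (0.858), and for Rspo1 Negr1 (0.840), Radil and Pex16 (0.804 for the last). Sfrp1 had Slc25a14 (0.834), Rabl3 (0.816) and Cdk6 (0.809), which dropped to 0.715, 0.670 and 0.631 without VAS 2 and VAS 3.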

How the data were processed

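Total RNA of pooled endometrial samples was sequenced from stranded, paired-end libraries. Per the labels and the study's methods, the authors checked reads with FastQC, trimmed adapters, aligned to GRCm38/mm10 with STAR and counted with featureCounts, and they deposited raw counts per gene. The strand setting of the counting is not given in the sources used here. The notes also name limma and edgeR.

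All 19 libraries entered one edgeR fit (version 4.0.16, R 4.3.3) with TMM factors, quasi-likelihood tests and Benjamini-Hochberg adjustment over the 17222 genes that reached 3 CPM in 3 or more libraries. A call needed an FDR of 0.05 or less and a fold of at least 1.5. CPM and RPKM were computed from the counts, scaled by TMM. Libraries were grouped by column name. The genes, lists and tests were chosen with earlier results of these data known. All 10 genes are reported. From each other list the largest changes past the cutoffs are named, up to 3 each way, with all R-spondin receptors, and for each tested gene the 3 most correlated genes. Notum, Lef1, Apcdd1 and Nkd1 in single libraries were added after their values were seen. Alternatives were DESeq2 1.42.0, limma 3.58.1, other scaling and filters, no fold cutoff, fewer libraries and a replicate block. Scripts were tested on simulated data. No 2 libraries of the same group agreed within sampling noise. Replicate numbers are shared between groups, but the labels do not say what they stand for. The main fit did not pair libraries by them.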

Additional observations from a re-analysis of the deposited data

Results flagged for a closer look

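Each of the 9 tested genes was examined in the 4 mated groups for a single value standing away from the remaining 3 libraries. Among these 36 sets, 4 such values came up, where chance gives 1.8. For Dkk3, INT 3 at 114.9 CPM lay far above the other INT libraries, at 65.5 to 73.1 CPM, and SVX_VAS 1 at 103.3 CPM lay far above the other SVX_VAS libraries, at 77.6 to 80.2 CPM. For Wif1, INT 2 at 4.79 CPM and SVX 1 at 8.645 CPM lay far above the other libraries of their groups, which had at most 4 counts. The 2 values of VAS 1 and VAS 3 for Wif1 were not found this way, because each lay close to the other.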

How the results depend on the processing

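The number of these genes called against CONT stayed within 1.5 times under every alternative run. Against INT it moved from 0 to 1 in VAS with limma-voom, and between 0 and 1 when each library was left out in turn (1 without VAS 1). For any difference among the mated groups it moved from 0 to 1 with DESeq2 and to 1 with limma-voom. The gene was Sfrp1 each time, and the cause was not tested. With a replicate block the numbers called were 4, 5, 4 and 6 against CONT and 0 in each other comparison, as without it. The block rests on a shared number only: same-numbered libraries of paired groups correlated between -0.688 and 0.583, and 4 of 19 libraries correlated best with their own number. Of the single rises, 364 alternative values kept the call and 16 lost it, all of Axin2 or Dkk2 in VAS, Dkk2 in SVX, and Rspo3 in INT or SVX_VAS, and 14 values of uncalled differences passed. No call changed direction. DESeq2's size factors shifted the median logFC of all genes by at most 0.02. Limma-voom with quality weights and TREAT called 3325 genes in INT against CONT, beside 5780 in edgeR. Chosen after seeing the data were leaving out VAS 2 and 3, the 4 libraries with high estrogen-response genes, and the 4 with Wif1. Without the latter, Axin2 in VAS had a logFC of 0.35 and was not called. That set holds VAS 1 and VAS 3, the VAS libraries highest in Axin2 (137.8 and 90.1 CPM), so that a lower logFC was built in. With 3 or 4 pools a group, intervals for Rspo3 and Wif1 are wide, and Dkk1 was at the count limit.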
